A study of Mus musculus with 8 samples.

Results

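*Gm12265* (ENSMUSG00000085132) is an antisense non-coding gene that lies across the exons of *Tom1l2* (ENSMUSG00000000538) on the opposite strand of mouse chromosome 11, and both genes were followed through 8 livers with and without hepatocyte *Rbfox2*. They are 2 of the 46078 gene identifiers counted in these livers. The pair was chosen because *Gm12265* differed between the genotypes, so that its genotype difference, and that of *Tom1l2* in the same comparison, are given as descriptions without a test. In LΔRbfox2 livers *Gm12265* was at 5.38 ± 0.92 CPM (counts scaled to the library size, SD, n = 4), against 1.94 ± 0.29 CPM (SD, n = 4) in LWT livers, which is 2.77-fold higher, and the genotypes did not overlap. *Tom1l2* was at 11.2 ± 4.83 CPM (SD, n = 4) and 15.8 ± 5.83 CPM (SD, n = 4) in the same order, which is 70.7% of the LWT mean, and its genotypes overlapped.

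The LWT mice carried both floxed (loxP) alleles of *Rbfox2* without a Cre transgene, and the LΔRbfox2 mice carried the same alleles with an albumin-promoter Cre, which deletes the gene in hepatocytes and leaves it in the other cells of the liver. The labels call these groups wild-type and *Rbfox2* knockout. All 8 mice were on the control diet, for 12 weeks according to the labels, and were harvested after 16 h without food. Each genotype is represented by 4 livers and each liver by 1 poly(A)-enriched library of between 37482458 and 56177588 counted reads. RBFOX2 is an RNA-binding protein that controls splicing by binding a short motif with the letters GCATG in DNA spelling, and the comparison asks what its loss does to the liver transcriptome.

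Antisense transcripts are RNAs made from the strand opposite a known gene. They can share sequence with that gene only as its complement, and some act on their host gene in cis while for many no role is known. TOM1L2 belongs to the TOM1 family of endosomal adaptors, which carry a VHS domain and bind ubiquitin, clathrin and Tollip while receptors are sorted on endosomes. No protein is annotated for *Gm12265*.

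In the GENCODE M21 annotation of GRCm38, *Gm12265* spans 1121 bases of the plus strand, chr11:60240810-60241930. Its only transcript has 2 exons of 47 and 421 bases, 468 bases together, separated by an intron of 653 bases. *Tom1l2* spans 126192 bases of the minus strand, chr11:60226714-60352905, with 11 transcripts, of which 8 are protein coding, and 8764 exon bases in all. *Gm12265* starts 14096 bases from the 3′ end of *Tom1l2*, and 110975 bases separate its end from the *Tom1l2* start. Of the 468 exon bases of *Gm12265*, 431 (92.1%) lie opposite annotated *Tom1l2* exons, and they cover 4.92% of the *Tom1l2* exon bases. Exon 1 lies wholly opposite *Tom1l2* exon sequence, while exon 2 has 384 bases opposite it and 37 bases free of it.

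**Figure D1:**
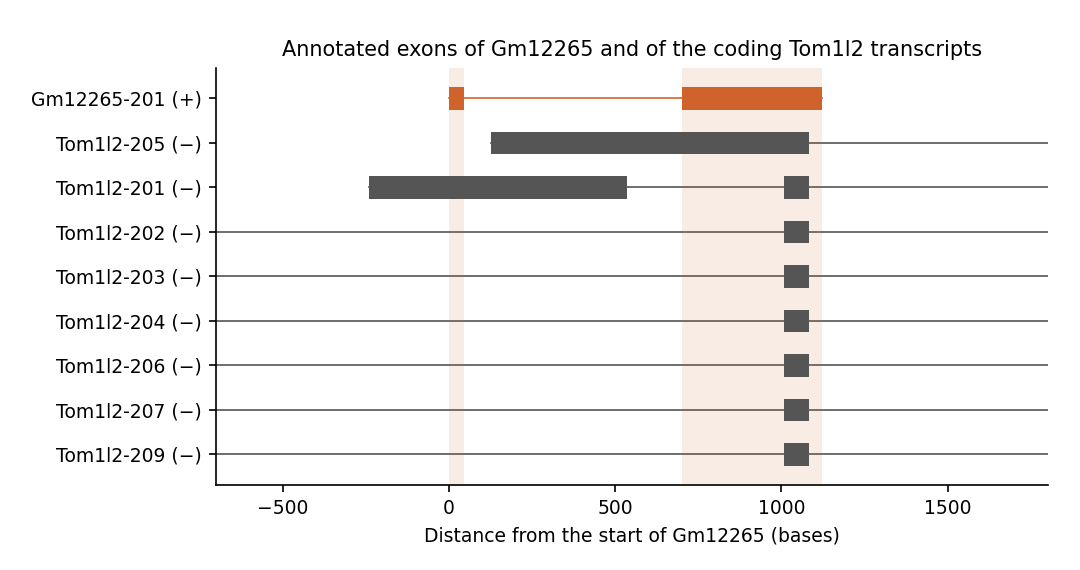
Exons (boxes) and introns (lines) of *Gm12265* on the plus strand and of the 8 coding *Tom1l2* transcripts on the minus strand, by distance in bases from the start of *Gm12265*, with its exons shaded down the plot. All 8 coding transcripts share the 76-base exon opposite *Gm12265* exon 2, and Tom1l2-201 and Tom1l2-205 end in this region.

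The 2 genes do not meet in the same way in every *Tom1l2* transcript. All 8 coding transcripts have exon bases opposite *Gm12265*, and all hold the coding exon chr11:60241818-60241893 of 76 bases. In 6 of them this exon is all that lies opposite *Gm12265*, and they continue beyond the antisense gene towards the 3′ end. Tom1l2-205 instead ends in an exon of 957 bases that runs on from the shared exon, chr11:60240937-60241893, and has 384 bases opposite *Gm12265*. Tom1l2-201 ends in an exon of 776 bases, chr11:60240570-60241345, and has 123 bases opposite *Gm12265* in all, the shared exon included. The counts are per gene and do not separate these transcripts.

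The sequences that define this arrangement are the splice junction of *Gm12265*, which shows the spliced antisense RNA and its single GCATG, and the stretch in which it pairs with every coding *Tom1l2* transcript. They come from the GENCODE M21 transcripts on GRCm38. The junction joins 15 bases of exon 1, which end at 60240856, to 15 bases of exon 2, which begin at 60241510. Capitals mark GCATG in the first sequence, the 76 bases opposite the shared coding exon in the second (chr11:60241776-60241930, plus strand), and the whole of that exon on the *Tom1l2* strand in the third (chr11:60241818-60241893, minus strand).
Gm12265 splice junction: ctgctccaaactgaggcctaGCATGtgaca
Gm12265 end of exon 2: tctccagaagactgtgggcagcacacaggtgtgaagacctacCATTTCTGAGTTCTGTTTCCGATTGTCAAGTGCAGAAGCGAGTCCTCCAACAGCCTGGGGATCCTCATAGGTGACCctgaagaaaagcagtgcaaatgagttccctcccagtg
Tom1l2 shared coding exon: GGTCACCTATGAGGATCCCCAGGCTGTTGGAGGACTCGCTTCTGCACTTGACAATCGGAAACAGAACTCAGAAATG
The third sequence is the reverse complement of the capitals in the second at all 76 bases. The last 37 bases of the second sequence, in lower case after the capitals, are the part of *Gm12265* that lies opposite no *Tom1l2* exon.

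The letters GCATG were searched on the transcript strand only, together with the longer form TGCATG, which contains GCATG. *Gm12265* holds GCATG at 1 place, bases 53 to 57 of the transcript (60241515 to 60241519), in exon 2 just beyond the junction, and TGCATG at none. In the first 468 bases of 114745 annotated transcripts, 34.1% hold GCATG and 10.7% hold TGCATG, so a single GCATG in a transcript of this length is common. Tom1l2-201 and Tom1l2-205 each hold 1 TGCATG, at 60241326 to 60241331, in their last exons and opposite the intron of *Gm12265*. The transcripts Tom1l2-202, Tom1l2-203, Tom1l2-204 and Tom1l2-206 also hold 1 TGCATG each, at 60226747 to 60226752 in their shared last exon. Of the non-coding transcripts, Tom1l2-211 holds the same TGCATG and Tom1l2-208 holds 3, the most of any *Tom1l2* transcript. These are matches of letters in spliced transcripts, and introns were not searched.

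As the exons of *Gm12265* are almost wholly complementary to *Tom1l2* exons, the first question was how the deposited counts treat the strands. The catalogue numbers in the study's methods include that of a directional, strand-marking kit, while the labels give only the kit's general name. The reads were aligned with a strand setting, and the strand setting of the counting is not given in the sources used here. Of other non-coding genes with at least 90% of their exon bases inside exons of an opposite-strand coding gene, 112 had at least 200 exon bases and a host with at least 800 counts in all, where the 90% limit was chosen after values were seen. Their median count per exon base was 0.67% of that of the host, with quartiles of 0.078% and 1.48%, and 1 of the 112 was at or above its host. Of the 84 that lie wholly inside host exons, 64 had counts. A low share alone does not show that strands were separated. Discarding every read that matches 2 genes would also leave partly free genes low, and genes wholly inside host exons without counts. The authors' gene models may differ from those used here, and the counting rule was not settled by these values. *Gm12265* stood at 480% of *Tom1l2* per exon base, the highest of the 113 pairs. It had 1260 counts over the 8 livers, where the median share of the other pairs would give 1.77 counts and their upper quartile 3.89 counts. *Tom1l2* had 4915 counts in all. These values per base use the exons of all transcripts of each gene. Only 2 other annotated genes overlap the span of *Tom1l2*, with 1 count between them.

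**Figure D2:**
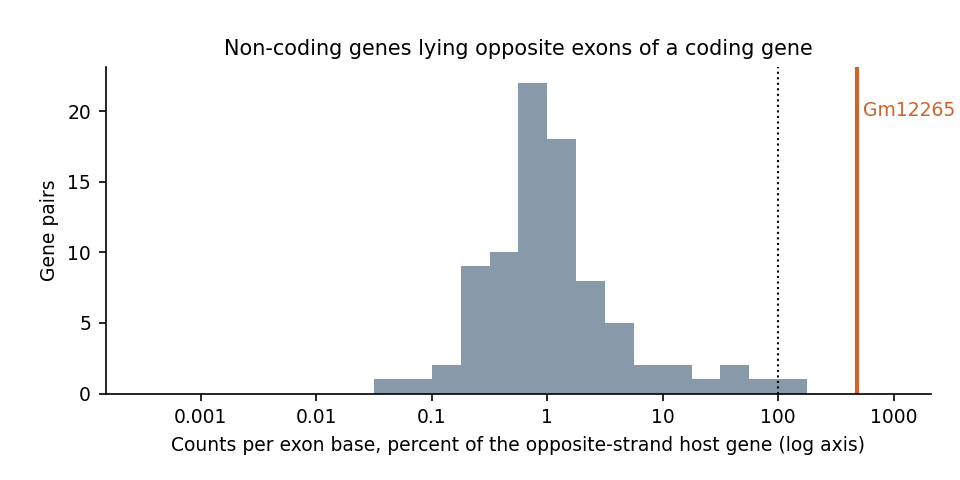
Number of gene pairs (vertical axis) by counts per exon base of a non-coding gene as a percentage of its opposite-strand coding host (horizontal log axis), over the 85 of 112 other pairs whose non-coding gene had counts. The dotted line marks 100%, and *Gm12265* (solid line) lies at 480%, beyond every other pair.

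The target of the deletion was checked first. *Rbfox2* was at 17.1, 10.4, 11.4 and 18.3 CPM in LWT replicates 1, 2, 3 and 4, and at 4.61, 6.09, 2.24 and 3.19 CPM in LΔRbfox2 replicates 1 to 4. Every LΔRbfox2 liver lay under every LWT liver. Its log2 fold change was −1.82 ± 0.32 (standard error). The Benjamini–Hochberg adjusted *P* over all genes was 0.504 in edgeR's quasi-likelihood test and 2.96e-04 in DESeq2, the lowest of 17 alternatives, of which the highest was 0.99995. Hepatocyte markers such as *Alb* and *Apoa1* were abundant in all 8 livers, with 6 of 6 counted in each and summed levels of 43275 to 63470 CPM in LWT and 48173 to 68569 CPM in LΔRbfox2 livers. The summed Kupffer cell markers were at 51.3 to 88.9 CPM in LWT and 29.2 to 59.6 CPM in LΔRbfox2 livers, and those of endothelial cells at 37.1 to 53.5 and 27.0 to 44.6 CPM. Summed stellate cell markers were at 47.1 to 105.6 and 62.9 to 109.2 CPM and cholangiocyte markers at 3.27 to 4.49 and 3.01 to 5.64 CPM. All 4 markers of each of these 4 cell types had counts in every liver, whereas 2 of the 4 B and T cell markers did, and these summed to 0.39 to 0.74 and 0.33 to 1.74 CPM. Of the Kupffer cell markers 1 of 4 did not overlap between the genotypes, and no marker of the other types was apart, against 2.28% of all genes tested in either direction. In whole liver, fewer cells of a type and less RNA per cell cannot be told apart, and the part of these markers in the results was not tested. LΔRbfox2 replicates 3 and 4 had TMM scaling factors of 0.72 and 0.78, and the other 6 libraries 1.02 to 1.14.

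*Gm12265* gave 67, 115, 81 and 88 counts in LWT replicates 1 to 4. In LΔRbfox2 replicates 1 to 4 it gave 204, 296, 225 and 184 counts. After scaling these were 1.75, 2.31, 1.68 and 2.03 CPM in LWT and 4.66, 4.62, 6.54 and 5.69 CPM in LΔRbfox2 livers. The TMM factors of 0.72 and 0.78 raise the CPM of LΔRbfox2 replicates 3 and 4 above those from library size alone. All 4 LΔRbfox2 livers lay above all 4 LWT livers, with a gap from 2.31 to 4.62 CPM between the genotypes. Of all 13856 genes tested, 146 (1.05%) lay wholly higher in LΔRbfox2 livers without overlap and 170 (1.23%) wholly lower, and nothing is read from these shares for *Gm12265*, which was chosen from this comparison. Its log2 fold change was 1.47 ± 0.21 (standard error), the 31st highest of 13856, and 0.64% of genes had a larger absolute value. The replicates of *Gm12265* were close to each other, with a coefficient of variation of 14.7% in LWT and 17.1% in LΔRbfox2 livers. A count of 0 would allow up to 3 counts, which correspond to 0.047 to 0.093 CPM depending on the library and cover counting error only, and *Gm12265* was above this limit in every liver.

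*Tom1l2*, the host gene, varied widely within each genotype. It gave 740, 486, 577 and 956 counts in LWT replicates 1 to 4 and 481, 1155, 258 and 262 counts in LΔRbfox2 replicates 1 to 4. Scaled, the LWT livers were at 19.3, 9.76, 12.0 and 22.0 CPM. The LΔRbfox2 livers were at 10.98, 18.02, 7.499 and 8.11 CPM. LΔRbfox2 replicates 1 and 2 fell inside the LWT range, and replicates 3 and 4, the libraries of low scaling factor, fell below it. Its log2 fold change was −0.50 ± 0.34 (standard error), and 24.0% of tested genes had a larger absolute value. The coefficient of variation was 37.0% in LWT and 43.3% in LΔRbfox2 livers.

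Without LΔRbfox2 replicates 3 and 4 both differences were smaller. The log2 fold change of *Gm12265* was then 1.23, and that of *Tom1l2* −0.13, a value under its standard error of 0.34 in the full comparison. Leaving out single livers also moved it, from −0.29 without LWT replicate 4 to −0.83 without LΔRbfox2 replicate 2. In the *Gm12265* comparison LΔRbfox2 replicates 1 and 2, at 4.66 and 4.62 CPM, were both above every LWT liver.

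Which gene of the locus had more counts per length depended, in 2 LWT livers, on the length taken for *Tom1l2*. *Gm12265* was at 4.15 ± 0.61 RPKM (CPM for each kilobase of exon, SD, n = 4) in LWT and 11.5 ± 1.97 RPKM (SD, n = 4) in LΔRbfox2 livers. *Tom1l2*, over all its exon bases, was at 1.80 ± 0.66 RPKM (SD, n = 4) and 1.27 ± 0.55 RPKM (SD, n = 4). Taken this way, *Gm12265* was the higher of the 2 in every liver, by 1.70 to 4.43 times in LWT and 4.80 to 16.3 times in LΔRbfox2 livers. With the 4999 bases of the longest annotated *Tom1l2* transcript in place of the 8764 bases of all transcripts, a length chosen after seeing the data, the ratio was 0.97 to 2.53 in LWT livers, with 2 of 4 below 1, and 2.74 to 9.32 in LΔRbfox2 livers, all above 1. The transcripts made in liver and the strand that the reads came from were not resolved by these counts. *Tom1l2* had more counts than *Gm12265* in every liver.

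The ratio of the 2 counts within a library needs no scaling between libraries. LWT replicates 1 to 4 had 9.05, 23.7, 14.04 and 9.21 *Gm12265* counts for every 100 *Tom1l2* counts. LΔRbfox2 replicates 1 to 4 had 42.4, 25.6, 87.2 and 70.2. The geometric means were 12.9 and 50.8, a 3.94-fold difference, and the log2 ratios were −2.95 ± 0.65 (SD, n = 4) and −0.98 ± 0.79 (SD, n = 4). The ranges did not overlap, although LWT replicate 2 at 23.7 and LΔRbfox2 replicate 2 at 25.6 lay close together. The ratio contains the *Gm12265* counts for which the locus was chosen. Its difference and the lack of overlap are therefore descriptions without a test. Without LΔRbfox2 replicates 3 and 4 the difference of the log2 ratios fell from 1.98 to 1.35.

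**Figure D3:**
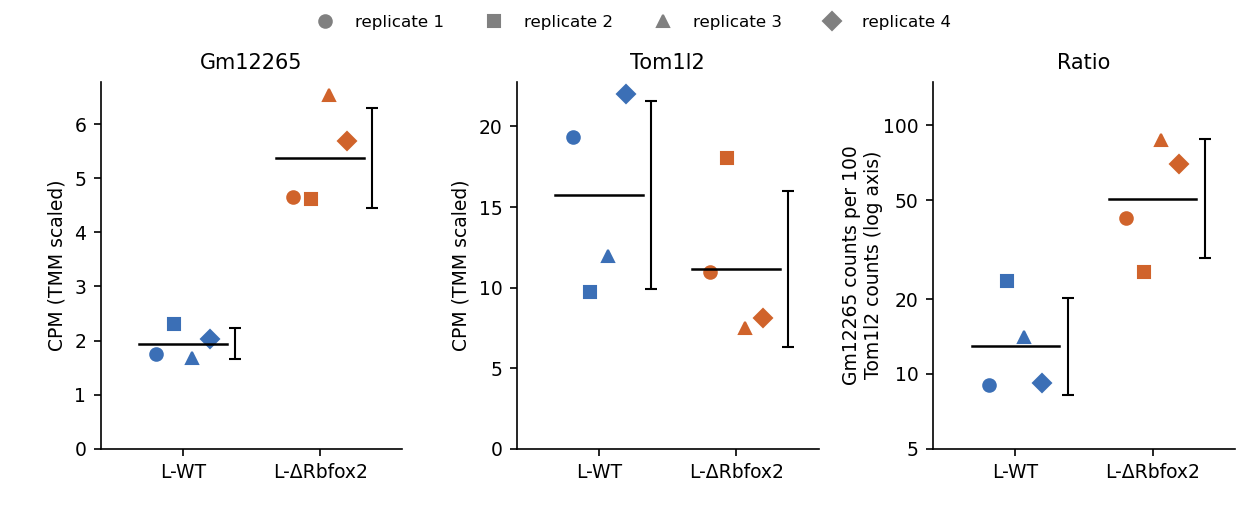
Levels of *Gm12265* and *Tom1l2* in CPM and their count ratio on a log axis, in 4 LWT (L-WT, blue) and 4 LΔRbfox2 (L-ΔRbfox2, orange) livers, with 1 point per liver, its shape giving the replicate. Lines are means and bars SD (of log2 values for the ratio): *Gm12265* is apart in the 2 genotypes, *Tom1l2* overlaps, and the ratios run from 9.05 to 23.7 and from 25.6 to 87.2.

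To relate the genes without using the genotype difference, each liver's log2 CPM was taken as a deviation from the mean of its genotype. Livers were then permuted within genotype, which allows 576 arrangements, and 5 relations were tested in this way in two-sided exact permutation tests. *Tom1l2* and *Gm12265* had *r* = −0.61 (n = 8, exact permutation *P* = 0.148, adjusted over the 5 relations 0.149) and a Spearman *rho* of −0.76 (exact permutation *P* = 0.050). Within LWT livers alone *r* was −0.32, and within LΔRbfox2 livers −0.84, each over 4 livers and without a test. Leaving out LΔRbfox2 replicate 2 and LWT replicate 4, the livers farthest from the median of *Tom1l2*, gave *r* = −0.74 (exact permutation *P* = 0.194). A relation in either direction was not detectable with these 8 livers. Its sign also depended on the processing: after a lowess correction of each library for exon length, added after seeing the data, *r* was 0.77 (exact permutation *P* = 0.042). The values of LΔRbfox2 replicates 3 and 4 also rest on their low scaling factors. The relation with scaling to total counts alone was not tested. Without LΔRbfox2 replicates 3 and 4 it was −0.29 (exact permutation *P* = 0.604).

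*Tom1l2* followed *Rbfox2* from liver to liver within the genotypes, with *r* = 0.94 (n = 8, exact permutation *P* = 0.0069, adjusted over the 5 relations 0.017) and *rho* = 0.95 (exact permutation *P* = 0.0035). Without LΔRbfox2 replicates 3 and 2 *r* was 0.98 (exact permutation *P* = 0.021). The main axis of variation over all tested genes, the first principal component of log2 CPM with 54.1% of the variance, moved with *Tom1l2* as closely. For this pair *r* was −0.98 (exact permutation *P* = 0.0069, adjusted 0.017), *rho* −0.95 (exact permutation *P* = 0.0069), and *r* without LΔRbfox2 replicate 2 and LWT replicate 1 −0.98 (exact permutation *P* = 0.056). The livers with the highest *Tom1l2* of their genotype, LWT replicates 1 and 4 and LΔRbfox2 replicate 2, were also the lowest on this axis. The axis is shared by many genes, and its part in the relation of *Tom1l2* with *Rbfox2* was not tested.

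Neither relation of *Gm12265* passed a *P* of 0.05. With *Rbfox2* within the genotypes it had *r* = −0.71 (n = 8, exact permutation *P* = 0.097, adjusted 0.149) and *rho* = −0.71 (exact permutation *P* = 0.087), and *r* = −0.43 (exact permutation *P* = 0.458) without LΔRbfox2 replicates 3 and 2. With the main axis it had *r* = 0.60 (n = 8, exact permutation *P* = 0.149, adjusted 0.149) and *rho* = 0.74 (exact permutation *P* = 0.061), and *r* = 0.37 (exact permutation *P* = 0.528) without LΔRbfox2 replicate 2 and LWT replicate 1.

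**Figure D4:**
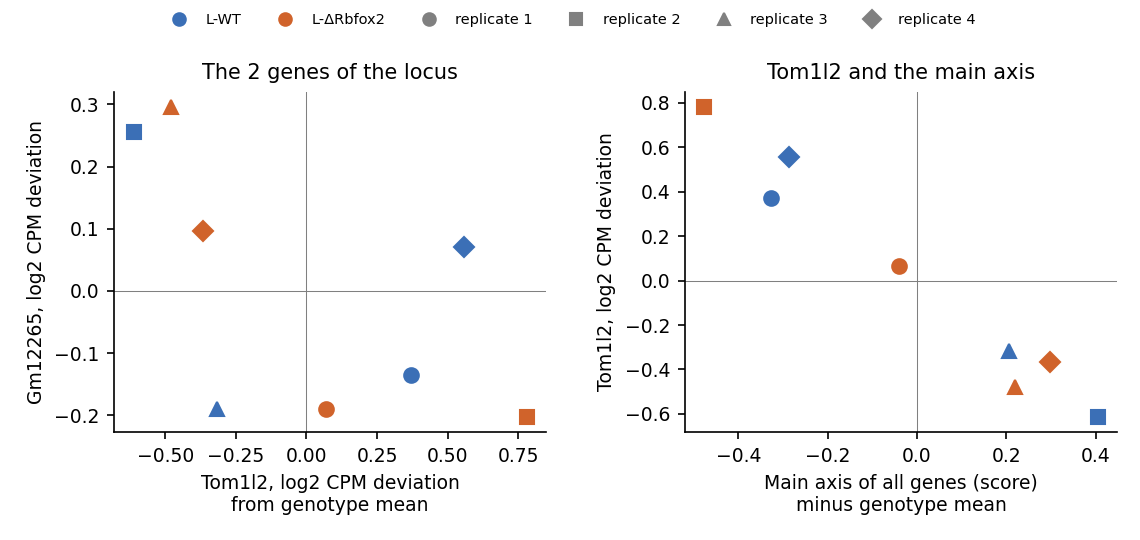
Deviations from the genotype mean in 8 livers: *Gm12265* against *Tom1l2* in log2 CPM (left), and *Tom1l2* in log2 CPM against the score on the main axis of all genes (right), with colour for genotype and shape for replicate. The left points scatter around a falling trend (*r* = −0.61), and the right points lie near a line (*r* = −0.98).

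*Gm12265* is a short gene, and short genes as a class had higher log2 fold changes than long ones. The 375 tested genes with at most 500 exon bases had a median log2 fold change of 0.49, with quartiles of −0.002 and 0.88, against −0.02 for the 13431 longer genes. *Gm12265* at 1.47 was above the upper quartile of the short genes, and 4 of the 375 (1.07%) were higher, against 25 of the longer genes (0.19%). The gene was chosen for this difference, so its place among them is a description. After the correction for exon length the log2 fold change of *Gm12265* was 0.95 and that of *Tom1l2* −0.35. After a correction for GC content, which is 52.1% in *Gm12265* and 55.2% in *Tom1l2*, they were 1.49 and −0.42.

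Other genes that overlap on opposite strands give a measure of how unusual the pair was. Among 448 other tested pairs of 1 coding and 1 non-coding gene, the median within-genotype *r* was 0.04, with quartiles of −0.37 and 0.47, and 48 pairs (10.7%) were more negative than *Gm12265* and *Tom1l2*. Over the 312 pairs with overlapping exons the median was 0.10, and 33 pairs (10.6%) were more negative. The 2 genes of a pair had log2 fold changes of opposite sign in 50.2% of the 448 pairs and in 47.1% of the 312. The non-coding gene had a higher log2 fold change than *Gm12265* in 3 of the 448 pairs, and the log2 fold changes differed by more than the 1.96 between *Gm12265* and *Tom1l2* in 2. Opposite directions were thus as frequent as shared ones in these pairs. The pair at this locus was chosen for its difference, so its place among the others is a description.

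The genes whose log2 CPM over the 8 livers was most like that of *Gm12265* were *Egln3*, a prolyl hydroxylase of the hypoxia response, at *r* = 0.96, the major urinary protein gene *Mup21* at 0.95, *Snhg18*, a long non-coding RNA, at 0.94, the cilium gene *Iqcb1* at 0.94 and *Spg21* at 0.94. This likeness includes the genotype difference by which *Gm12265* was chosen. Their log2 fold changes were 0.49, 1.42, 0.80, 0.70 and 0.73, all smaller than that of *Gm12265*. In all, 31 genes had *r* above 0.9 with it. *Mup21* has near-identical family members that can share reads, so its level is uncertain.

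*Tom1l2* had many more close companions, with 1289 genes above *r* = 0.9. The nearest were *Hdgfl2*, a chromatin-associated growth factor relative, at 0.999, and the Golgi genes *Cog1* and *Golga2* at 0.993 and 0.992. The heparan sulfate enzyme gene *Ndst1*, at 0.992, and the topoisomerase gene *Top3b*, at 0.991, followed. *Hdgfl2*, with the highest likeness, was at 11.4 CPM in LWT and 8.49 CPM in LΔRbfox2 livers, a log2 fold change of −0.42. None of these 5 genes lies within 500 kb of *Tom1l2*, and their log2 fold changes ran from −0.42 to −0.28. Among the tested genes within that distance, the within-genotype *r* with *Tom1l2* ran from −0.94 for *Cops3* to 0.98 for *Flii*. *Gm12265* ranked 9634th of 13855 genes by its likeness to *Tom1l2*, with *r* = −0.59 over the 8 livers.

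The genes around the locus show whether a wider stretch of chromosome 11 moved with *Gm12265*. Within 500 kb of *Tom1l2* lie 60 other annotated genes, of which 23 could be tested and 22 are protein coding. No gene of the 23 passed an adjusted *P* of 0.05 in edgeR or in DESeq2, where the shares of all genes tested were 0% and 0.0379%. At an unadjusted *P* under 0.05 in edgeR there were 3 of 23, all higher in LΔRbfox2 livers, where 1356 of all 13856 genes (9.79%) were under it and most of these, 1102 (7.95%), were higher. The median log2 fold change was −0.25, against −0.02 for all genes tested, with 7 genes above 0 and 16 below. The other 37 genes had at most 13 counts in any liver, and 26 of them had none.

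The nearest tested neighbour beyond the 3′ end is *Srebf1*, which encodes the lipogenic transcription factor SREBP1. It was at 13.4, 12.97, 19.8 and 55.6 CPM in LWT and at 12.3, 18.7, 10.4 and 10.9 CPM in LΔRbfox2 replicates 1 to 4. LWT replicate 4 stood apart, the genotypes overlapped, and the log2 fold change was −0.96 (adjusted *P* = 0.511, edgeR) with that liver and −0.23 (adjusted *P* = 0.901, edgeR) without it. On the other side, *Drc3*, a gene for a subunit of the dynein regulatory complex of cilia, is transcribed away from the *Tom1l2* start. It was close to the detection limit at 0.30 ± 0.10 CPM (SD, n = 4) in LWT and 0.23 ± 0.15 CPM (SD, n = 4) in LΔRbfox2 livers.

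Further away, *Pld6*, which encodes a mitochondrial phospholipase, was the only one of the 23 without overlap between the genotypes, at 0.24 to 0.86 CPM in LWT and 0.89 to 1.51 CPM in LΔRbfox2 livers, where 1.05% of all genes tested were wholly higher. Its log2 fold change was 1.15 (unadjusted *P* = 0.013, adjusted *P* = 0.504, edgeR). The antisense gene *Gm16062* had the highest log2 fold change of the neighbours, 2.06 (adjusted *P* = 0.504, edgeR), on levels of 0.16 to 0.44 CPM in LWT and 0.09 to 3.22 CPM in LΔRbfox2 livers, which overlapped. It overlaps *Cops3*, a subunit gene of the COP9 signalosome, on the opposite strand, and *Cops3* had a log2 fold change of 0.52 (adjusted *P* = 0.504, edgeR). The phosphatidylcholine synthesis gene *Pemt* was at 0.43 (adjusted *P* = 0.562, edgeR) and *Rai1*, a chromatin regulator gene, at −0.29 (adjusted *P* = 0.736, edgeR). The neighbours of *Gm12265* thus had log2 fold changes on both sides of 0, while the nearest on each flank, *Srebf1* at −0.96 and *Drc3* at −0.34, were below 0. Both values rested on single livers. *Srebf1* was at −0.23 without LWT replicate 4, and *Drc3*, close to the detection limit, at −0.05 without LΔRbfox2 replicate 4. No neighbour passed the threshold, and neither did any other gene tested in edgeR.

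**Figure D5:**
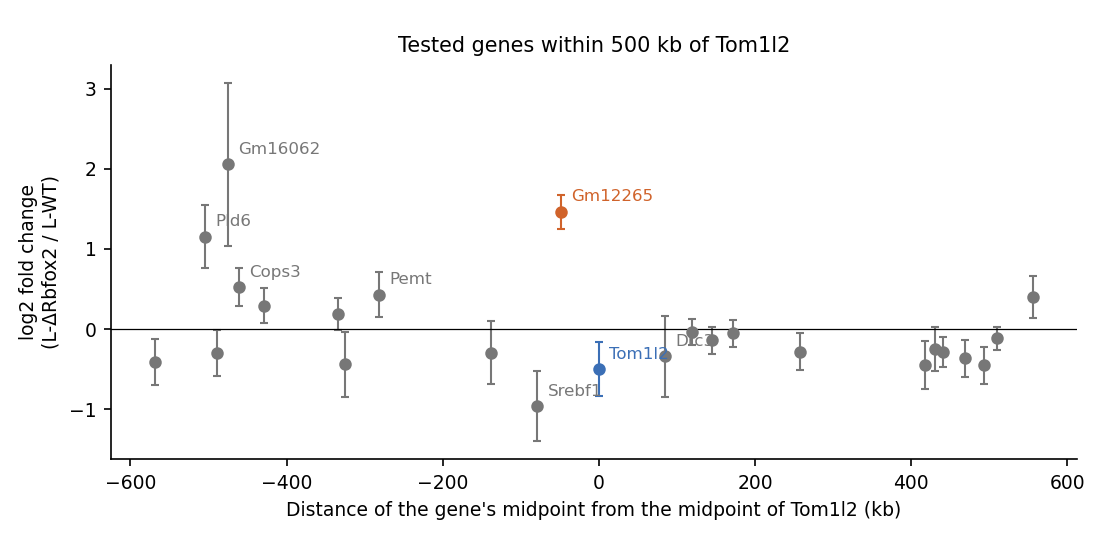
Log2 fold change (LΔRbfox2 over LWT, edgeR) with the standard error of the limma-voom fit for *Gm12265* (orange), *Tom1l2* (blue) and the 23 other tested genes within 500 kb (grey), by the distance in kb of each gene's midpoint from that of *Tom1l2*. *Gm12265* stands at 1.47 among neighbours that mostly lie between −0.96 and 0.52, with *Pld6* at 1.15 and *Gm16062* at 2.06 near the left edge.

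The host gene's own pathway was followed through a list of 20 genes, of which 19 are in the counts and all 19 could be tested. The list holds the other VHS domain proteins, the partners of the TOM1 family, and ESCRT-I, a complex that sorts ubiquitinated receptors on endosomes. No gene of the 19 passed an adjusted *P* of 0.05 in edgeR or DESeq2, where the shares of all genes tested were 0% and 0.0379%. None had an unadjusted *P* under 0.05 in edgeR, against 9.79% of all genes tested. The median log2 fold change was −0.17, with 6 genes above 0 and 13 below. Over all genes tested it was −0.02, with 6710 above 0 and 7146 below. The median of the list was −0.01 without the livers of low TMM factor and 0.05 with the exon length correction. No gene was apart in the 2 genotypes, against 2.28% of all genes tested in either direction. Of the closest relatives of *Tom1l2*, *Tom1* was at 10.6 ± 1.42 CPM (SD, n = 4) in LWT and 8.65 ± 2.18 CPM (SD, n = 4) in LΔRbfox2 livers, and *Tom1l1* at 10.6 ± 1.59 and 10.9 ± 1.28 CPM.

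The other members of the list showed as little. Log2 fold changes of the ESCRT-0 genes were −0.25 for *Hgs*, 0.15 for *Stam* and −0.03 for *Stam2*. The GGA adaptors of the trans-Golgi network had −0.24 for *Gga1*, −0.06 for *Gga2* and −0.47 for *Gga3*, the lowest of the list. *Tollip*, the ubiquitin-binding partner of TOM1 proteins, was at −0.19. In ESCRT-I the range ran from −0.37 for *Vps37b* to 0.38 for *Tsg101*, with *Mvb12a* at 0.31. All 19 adjusted *P* values in edgeR were at or above 0.539, where the lowest of all genes tested was 0.504.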

How the data were processed

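Liver RNA of 4 LWT and 4 LΔRbfox2 mice was poly(A)-enriched and sequenced as 100-base paired-end reads. The authors aligned them to GRCm38 with TopHat2 (2.0.11) using a first-strand setting, and deposited featureCounts counts per gene, whole and unnormalized; whether pairs or reads were counted, and the strand and multi-mapping settings, are not given in the sources used here. CASAVA (1.8.4) is named in the submitters' processing notes, while the study's methods give other versions. Counts total 37482458 to 56177588 per liver (median 42589090), with 0 columns unmatched to a liver. The authors' gene models may differ from GENCODE M21 used here, which matched 45143 of 46078 identifiers. The labels give 12 weeks on diet and the study's methods a longer range. Nothing in the labels ties livers of the 2 genotypes to one litter or day, and each is treated as a separate animal.

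Genes passing filterByExpr (minimum count 10, minimum total 15) were fitted in edgeR 4.0.16 (R 4.3.3) with TMM factors, total counts as library sizes and genotype as the only term, using glmQLFit and glmQLFTest with Benjamini–Hochberg adjustment over 13856 genes and a threshold of 0.05. Standard errors are from limma-voom (limma 3.58.1) and log2 CPM used a prior count of 2. RPKM divided CPM by the exon bases of all transcripts. DESeq2 1.42.0, limma-voom, other size factors, no filter, the replicate number as a block and each liver left out were alternatives; length and GC corrections (lowess span 0.3) and leaving out both livers with a TMM factor under 0.9 were added after seeing the data. No 2 libraries of a genotype were copies (smallest chi-square per degree of freedom 97.8). The fits and the permutation test were tested on simulated data first.

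The members and lists were chosen with earlier results of these data known. Genes named are both members, *Rbfox2*, tested genes within 500 kb, the VHS domain and ESCRT list, and the 5 genes most like each member. Scripts ran in Python 3.11.15 with matplotlib 3.10.9, pandas 2.3.3, scipy 1.17.1 and numpy 2.4.6.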

Additional observations from a re-analysis of the deposited data

Results flagged for a closer look

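*Srebf1*, the neighbour of *Tom1l2*, had 1 liver far from the other 3 of its group: LWT replicate 4 was at 55.6 CPM, and the other LWT livers at 12.97 to 19.8 CPM. This was the only group set apart among 66 groups of 4 livers examined, where about 3.3 would be expected by chance. No value of *Gm12265*, of *Tom1l2* or of their ratio was set apart in this way.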

How the results depend on the processing

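The direction of the *Gm12265* and *Tom1l2* differences held under all alternatives run, 17 each, with log2 fold changes of 0.95 to 1.57 and −0.83 to −0.13. *Gm12265* moved by more than the spread between replicates with the exon length correction (0.95) and without the livers of low TMM factor (1.23), and the genotype difference of the log2 ratio of *Gm12265* to *Tom1l2* counts, 1.98, stayed between 1.35 and 2.31. The within-genotype correlation of the 2 genes was −0.80 to −0.45 with each liver left out in turn, and it reversed to 0.77 with the exon length correction. The cause was not tested, and scaling to total counts alone was not among the alternatives. The count of genes passing 0.05 over all genes was 0 in edgeR and limma-voom and 9 in DESeq2, and it was 0 among neighbours and in the VHS domain and ESCRT list under every alternative; at an unadjusted *P* under 0.05, neighbours numbered 0 to 9 and list genes 0 to 3. Over all genes that number was 1356, and it ran from 171 without the livers of low TMM factor to 3475 without LΔRbfox2 replicate 2. *Rbfox2* (log2 fold change −1.82, adjusted *P* = 2.96e-04) and *Mup21* (1.41, adjusted *P* = 0.0071) passed the threshold in DESeq2 and in no other alternative, over which both reached an adjusted *P* of 0.99995.

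Some log2 fold changes changed sign in a few settings. With the GC correction *Tom1l1* was at −0.098 and *Stam* at −0.094, and with the length correction *Stam2* was at 0.053 and *Gga2* at 0.063. Without the livers of low TMM factor *Rai1* was at 0.067, *Hgs* at 0.048, *Stam* at −0.081, *Gga2* at 0.056 and *Cog1* at 0.0021. Of these, *Rai1* at −0.29, *Cog1* at −0.28 and *Hgs* at −0.25 were farther from 0 with all 8 livers. With 1 liver left out, *Tom1l1* ran from −0.026 to 0.16, *Stam* from −0.072 to 0.27, *Stam2* from −0.13 to 0.073 and *Gga2* from −0.27 to 0.028. In the fit with a block for replicate number, log2 fold changes of *Gm12265* and *Tom1l2* were 1.46 and −0.53, their count ratio differed by 1.98, the within-genotype *r* was −0.63, and 0 genes passed over all genes, among neighbours and in the list. Deviations of same-numbered livers had correlations of 0.13, −0.61, 0.12 and −0.51, which cannot show whether these livers were paired by litter or day. About 1260 *Gm12265* counts in all and 4 livers a genotype limit these values.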
